A study of Mus musculus with 6 samples.

Results

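The proteasome genes of NIH3T3 mouse fibroblasts were examined after treatment with extracellular vesicles (EVs) from 2 human breast cell lines. Members were taken by name from a table of 20475 genes: symbols that begin with Psma to Psmg and a digit, without the interferon-inducible subunits Psmb8, Psmb9 and Psmb10. Of 47 names matched, 46 reached at least 10 normalised reads in at least 2 libraries. The 1 left out was Psma8, with 1 read in all libraries together. The 46 were 7 genes of the 20S alpha ring, 8 of the 20S beta ring, 9 of the 19S base, 8 of the 19S lid, 13 regulators and assembly factors, and Psmc3ip, a recombination factor that the name pattern takes in and that is no proteasome subunit. All 46 passed the filter on low values. The rule used no measured difference between groups, but the members were chosen with earlier results of these data known.

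All 6 libraries came from the same mouse line at passage 5, grown in serum-containing medium, with RNA taken 48 h after treatment. Control cells received PBS, the liquid in which the vesicles were suspended (2 libraries). The others received EVs from MCF10A, a non-tumorigenic breast epithelial line (2 libraries), or from MDA-MB-231, a triple-negative breast cancer line (2 libraries). The labels do not say that the 2 libraries of a group came from separate cultures, so p-values measure only the spread between these libraries, which may be technical. Normalised reads are the authors' read numbers adjusted to a common library size. The libraries held 22451173 to 29315530 gene reads. Summed reads of 10 fibroblast markers were 396440 to 480620 per library and were highest in PBS. The sum of 6 epithelial markers was 28.5 to 48.7, and 3 of them (Epcam, Krt18 and Krt5) had no read in any library. Nearly all of it was Krt8, with means of 46.1 (PBS), 35.3 (MCF10A EVs) and 28.7 (MDA-MB-231 EVs), not called. Krt14 had at most 1.01 normalised reads. Cdh1 had 0 reads in the PBS libraries and 2 to 4 in the others. It was called higher with MCF10A EVs and with MDA-MB-231 EVs (limma adjusted p = 0.040 and 0.018). The fibroblast sum was 479840 to 480620 with PBS, 409080 to 421880 with MCF10A EVs and 396440 to 405640 with MDA-MB-231 EVs, and its part in the results below was not tested. Not every marker followed the sum. On the log2 scale Col3a1 rose by 0.80 with MCF10A EVs and 0.46 with MDA-MB-231 EVs (limma adjusted p = 8.9e-11 and 1.1e-08). Pdgfra, Pdgfrb and S100a4 were not called with MDA-MB-231 EVs, nor Fn1 with MCF10A EVs. The remaining calls of the fibroblast markers against PBS were falls. Only 2 of the listed leukocyte markers are reported here: Cd3e had no read and Ptprc at most 1.05 normalised reads. The others are not reported here, so these 2 do not describe the whole list. The sum of 4 endothelial markers was 348 to 357 with PBS, 284 to 332 with MCF10A EVs and 147 to 184 with MDA-MB-231 EVs. Nearly all of it was Cdh5 (VE-cadherin), which fell by 1.12 on the log2 scale with MDA-MB-231 EVs against PBS (limma adjusted p = 1.8e-06), and its part in the results was not tested. In bulk samples, fewer cells of a type and less RNA per cell cannot be told apart.

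The 26S proteasome degrades proteins tagged with ubiquitin. Its 20S core is a barrel of alpha and beta rings, with the cutting sites on the beta subunits Psmb5, Psmb6 and Psmb7. The 19S cap sits on the barrel: the ATPases and scaffold proteins of its base unfold and thread the substrate, and its lid removes the ubiquitin chain. When proteasome activity falls, the transcription factor Nfe2l1 (NRF1), with small MAF partners, is known to raise subunit genes together through antioxidant response elements.

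Levels across the complex were of similar order. Per kb of annotated transcript (GENCODE vM21), the mean over the 6 libraries ran 7.4-fold, from 489 normalised reads per kb for Psma3, an alpha ring subunit, to 3619 for Psmd2, a large scaffold protein of the base, over the 31 core and cap subunits without Psmb11. Psma7, an alpha ring subunit, was next at 3401. Median levels were 1847 per kb for the alpha ring, 2438 for the beta ring without Psmb11, 2165.7 for the base and 1552 for the lid, against 529 for the regulators and assembly factors. Per kb of coding sequence, a scale chosen after seeing the data, the spread over the same 31 genes was 3.34-fold, from 1738 for Psmd6 to 5807 for Psmb1. Psmb11, the thymus-specific catalytic subunit, lay far below at 2.17 per kb of transcript, with 4.95 to 13.8 normalised reads per library. Psmc3ip was next lowest at 224 per kb. Its exons overlap Mlx on the other strand over 21.2% of their length, and since the strand setting of the counting is not given, reads of the 2 genes cannot be told apart there. The same holds for Psmd9 (25.5%, Gm26745), Psmb7 (11.8%, Nek6) and Psmd13 (10.1%, Sirt3).

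Promoter sequences are shown because the subunit genes moved together and because of the known link between NRF1 and the antioxidant response element. RefSeq promoter windows (GRCm38.p6, 250 bases before to 50 after the start) were matched by symbol for 39 of the 46 genes, in 42 windows. Psmb1, Psmb2, Psmb7, Psmc3, Psmd3, Psmd7 and Psmg2 had no window in the table. The element's core TGACNNNGC, on either strand, was in 6 of 42 windows (14.3%), against 14% of the windows of all genes tested and 12.4% of all windows. CCAAT was in 33.3% (38.1% of genes tested, 37.4% of all) and GGGCGG in 54.8% (56.9% and 35.7%). The share holding the core was thus close to that of the genes tested. The core is in capitals in the first 3 sequences and GGGCGG in the last 2, each written 5′ to 3′ on the gene's strand. Of Psmb5, Psmb6 and Psmb7, the first 2 have a window, and both windows hold the core. The window of the thymus-specific catalytic subunit Psmb11 holds CCAAT but not the core. Psmd12 is a lid subunit that rose in both vesicle groups. Psmd6 and Psmd8 are lid subunits whose levels went opposite ways.
Psmb5, chr14:54618008-54618067, minus strand: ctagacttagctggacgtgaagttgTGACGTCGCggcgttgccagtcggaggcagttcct
Psmb6, chr11:70525297-70525356, plus strand: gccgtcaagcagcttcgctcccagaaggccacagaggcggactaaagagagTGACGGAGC
Psmd12, chr11:107479278-107479337, plus strand: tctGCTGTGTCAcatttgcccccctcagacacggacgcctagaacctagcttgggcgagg
Psmd6, chr14:14120946-14121045, minus strand: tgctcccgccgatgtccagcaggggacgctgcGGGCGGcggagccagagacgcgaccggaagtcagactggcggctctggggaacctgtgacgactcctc
Psmd8, chr7:29180674-29180773, minus strand: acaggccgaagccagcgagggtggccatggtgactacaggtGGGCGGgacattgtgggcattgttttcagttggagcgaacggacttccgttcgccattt
In Psmd12 the capitals are the core read on the other strand. With MCF10A EVs, 3 of the 6 genes with the core and 19 of the 33 without it were called higher. A match is a stretch of letters and no measured binding site.

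The first comparison asked what MCF10A EVs did to the complex. Most of it rose by a small amount. Of the 46 genes, 27 rose (limma, Benjamini-Hochberg adjusted p under 0.05), where 17.1% of the 15025 genes tested did, 1 fell (14.6% of all genes) and 18 were not called. In either direction 28 were called, against 31.7% of all genes. The median change was 0.17 on the log2 scale, against 8.1e-05 over all genes tested. The largest of the 27 rises was 1.31-fold and the smallest 0.14 on the log2 scale. The libraries of the 2 groups did not overlap, with MCF10A EVs higher, for 37 of 46 genes (33% of all genes), and with MCF10A EVs lower for 4 (31.1%). Summed over the 46 genes, normalised reads were 111193 and 112622 in the PBS libraries and 125292 and 125264 in the MCF10A EV libraries, 1.12-fold higher. As a share of all recovered reads the ratio was 1.14.

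**Figure D1:**
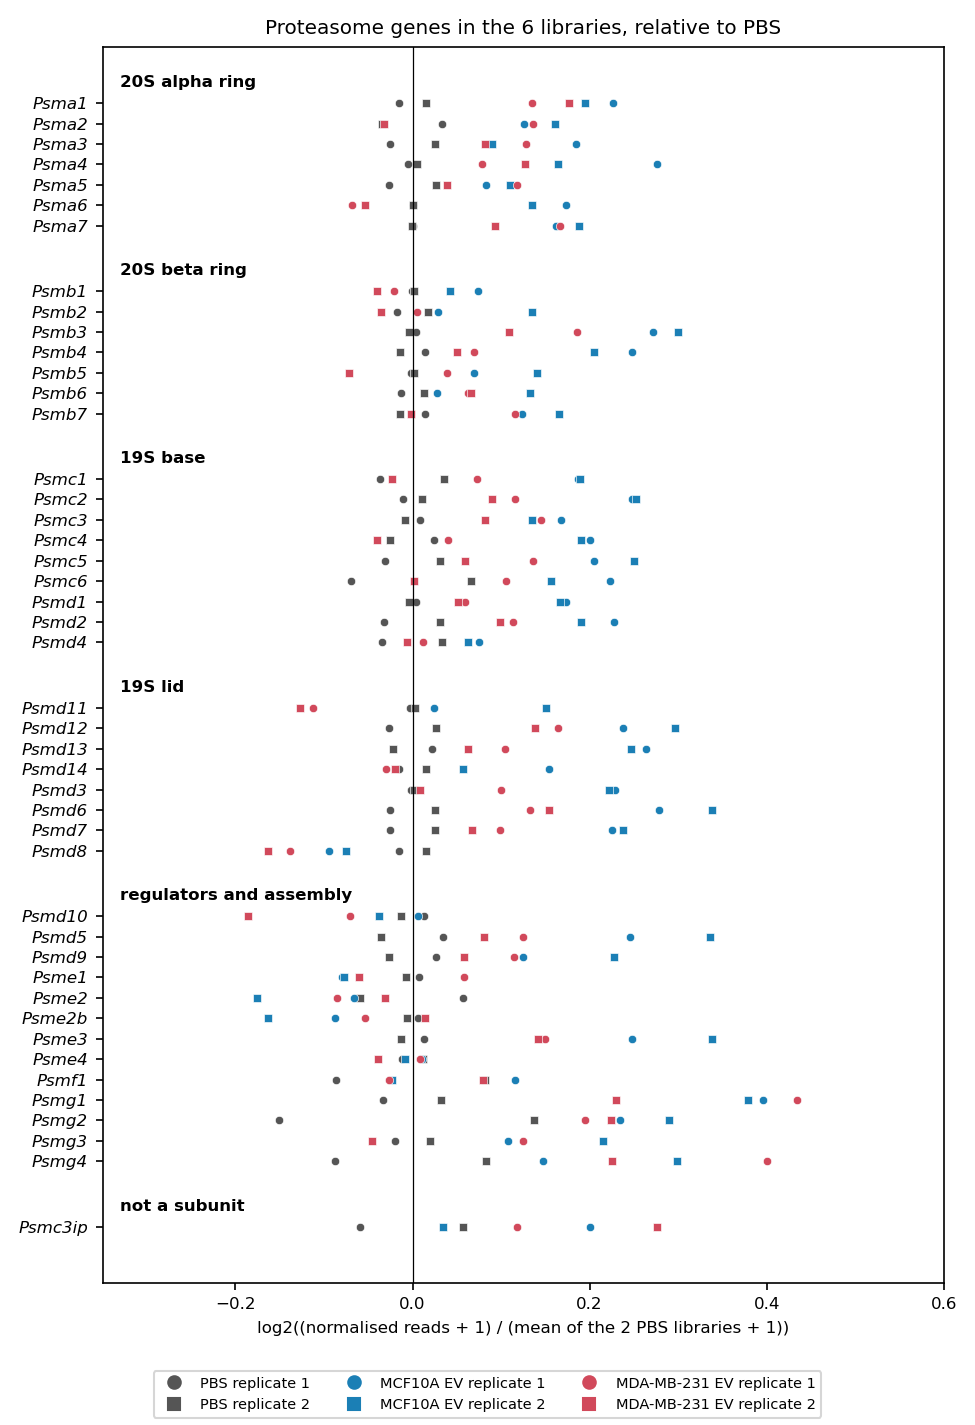
Each row is a gene (Psmb11 left out) and each point 1 library, as log2 of its normalised reads over the mean of the 2 PBS libraries (1 added to both); colour gives the group and shape the replicate. The MCF10A EV points lie to the right of the PBS points in most rows of the core and cap, with Psmd8 to the left, and most MDA-MB-231 EV points lie between them.

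In the 20S core, 9 of 15 genes rose (17.1% of all genes tested) and none fell (14.6%). Psma4, an alpha ring subunit, had 1985 and 2000 normalised reads in the PBS libraries, 2414 and 2233 after MCF10A EVs, and 2104 and 2177 after MDA-MB-231 EVs. Its groups did not overlap in any comparison, and it rose by 0.22 on the log2 scale with MCF10A EVs (SE 0.042, limma adjusted p = 0.00094). Psma1, also of the alpha ring, had 2243 and 2290 in the PBS libraries, 2652 and 2594 after MCF10A EVs, and 2489 and 2561 after MDA-MB-231 EVs, and both vesicle groups lay above PBS. It rose by 0.21 (limma adjusted p = 0.00035). Psma7 had 2894 and 2893 in the PBS libraries, 3237 and 3296 after MCF10A EVs, and 3247 and 3087 after MDA-MB-231 EVs, so the 2 vesicle groups overlapped, and it rose by 0.17 (limma adjusted p = 0.0013). In the beta ring, Psmb3, a structural subunit, had 1343 and 1335 in the PBS libraries, 1616 and 1649 after MCF10A EVs, and 1523 and 1445 after MDA-MB-231 EVs. Those 3 groups were in separate ranges, with MCF10A EVs highest, and the rise was 0.29 (limma adjusted p = 0.00012). Psmb4, also structural, had 3528 and 3457 in the PBS libraries, 4148 and 4024 after MCF10A EVs, and 3664 and 3617 after MDA-MB-231 EVs, and rose by 0.23 (limma adjusted p = 7.7e-05). These 5 calls held when any 1 library was left out. Those of Psma3 and Psma2 (0.14 each) did not: without single libraries their changes ran from 0.09 to 0.18 and from 0.11 to 0.18, and the call of Psma2 was lost without any 1 of the PBS and MCF10A EV libraries, and that of Psma3 without any library except MCF10A EV replicate 2.

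Of the 3 catalytic subunits, only Psmb7, the trypsin-like site, passed the test against PBS. Its normalised reads were 2828 and 2775 in the PBS libraries, 3053 and 3142 after MCF10A EVs, and 3034 and 2799 after MDA-MB-231 EVs. The MCF10A EV libraries were above both other groups, while the MDA-MB-231 EV libraries overlapped PBS. The rise with MCF10A EVs was 0.14 (SE 0.040, limma adjusted p = 0.012), and ran from 0.12 to 0.17 with single libraries left out, where the call was lost without any 1 of the PBS and MCF10A EV libraries. Psmb5, the chymotrypsin-like site, had 1508 and 1512 in the PBS libraries, 1585 and 1665 after MCF10A EVs, and 1552 and 1436 after MDA-MB-231 EVs. Its MCF10A EV libraries were higher than PBS without overlap, but the change of 0.11 (95% interval 0.0059 to 0.20) was not called (limma adjusted p = 0.10). Psmb6, the caspase-like site, had 1902 and 1937 in the PBS libraries, 1957 and 2104 after MCF10A EVs, and 2005 and 2009 after MDA-MB-231 EVs. Both vesicle groups were above PBS, with a change of 0.08 in the former (95% interval -0.0083 to 0.17, limma adjusted p = 0.17). With MDA-MB-231 EVs the log2 changes against PBS were -0.02 for Psmb5, 0.06 for Psmb6 and 0.06 for Psmb7, none called by limma (adjusted p = 0.83, 0.26 and 0.31).

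**Figure D2:**
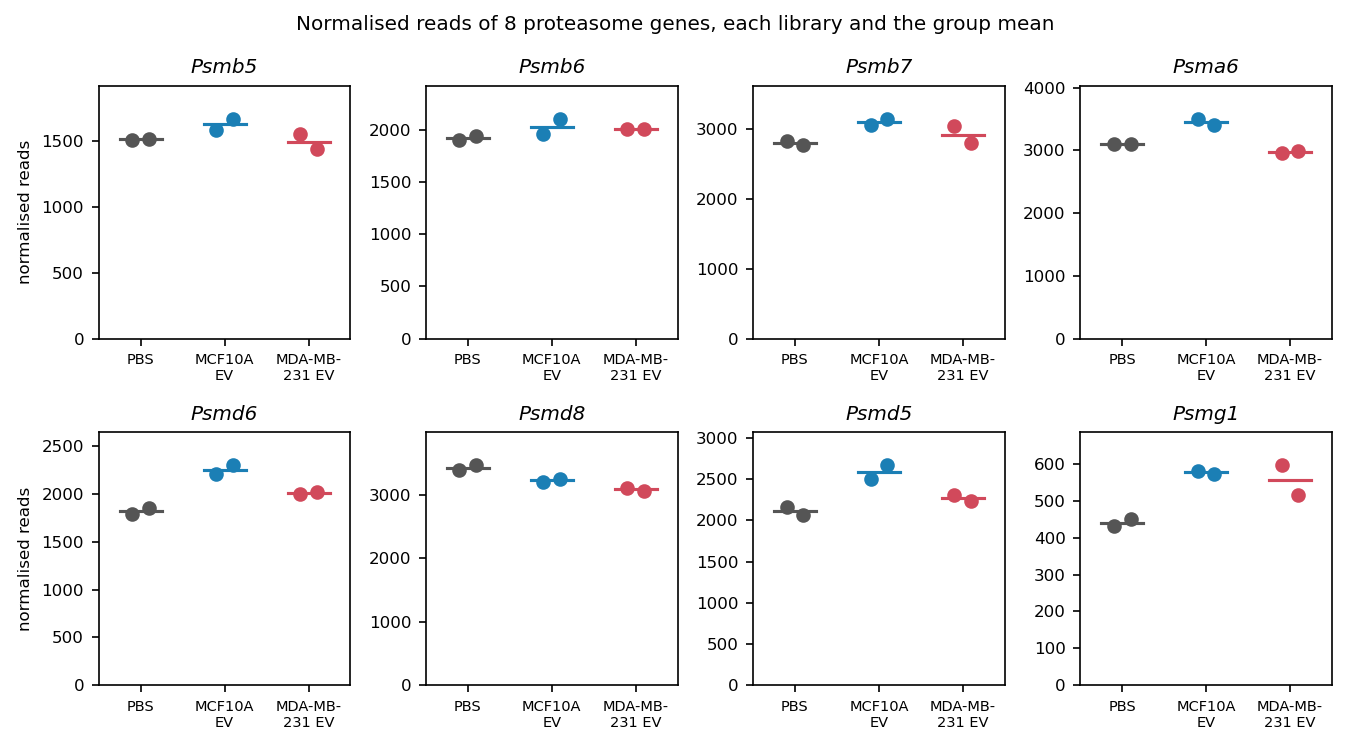
Normalised reads of 8 genes (vertical axes start at 0); points are libraries and bars group means. Psmd6 and Psmd5 are highest with MCF10A EVs, Psmd8 is lower in both vesicle groups than in PBS, and Psmb5 differs little beside its own level.

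In the 19S cap, 13 of 17 genes rose with MCF10A EVs, 8 of 9 in the base and 5 of 8 in the lid, and none fell. Over all genes tested, 17.1% rose and 14.6% fell. Median changes were 0.19 for the base and 0.23 for the lid. Psmd6, a lid scaffold subunit, had 1788 and 1851 normalised reads in the PBS libraries, 2208 and 2300 after MCF10A EVs, and 1996 and 2026 after MDA-MB-231 EVs. The 3 groups were in separate ranges and its rise of 0.31 (SE 0.039, limma adjusted p = 2.6e-05) was the largest of the core and cap. Psmd12, another lid subunit, had 2905 and 3013, then 3490 and 3633, then 3316 and 3257 in the same order of groups, and rose by 0.27 (limma adjusted p = 3.6e-05). Psmc2, an ATPase of the base, had 3713 and 3766 in the PBS libraries, 4440 and 4455 after MCF10A EVs, and 4053 and 3980 after MDA-MB-231 EVs, and rose by 0.25 (limma adjusted p = 2.0e-05). Psmd2 had 9728 and 10162 in the PBS libraries, 11643 and 11346 after MCF10A EVs, and 10761 and 10653 after MDA-MB-231 EVs, and rose by 0.21 (limma adjusted p = 6.8e-05). The 3 groups did not overlap for any of these 4 genes, and their calls held without any 1 library. The ATPase gene Psmc3 had 4336 and 4284 in the PBS libraries, 4842 and 4734 after MCF10A EVs, and 4767 and 4563 after MDA-MB-231 EVs, so that the vesicle groups overlapped. It rose by 0.15 (limma adjusted p = 0.0021). Leaving out PBS replicate 2 ended this call, and changes over single libraries left out ran from 0.14 to 0.17. Not called were Psmd4, a ubiquitin receptor, Psmd11, Psmd14, the lid's deubiquitinase, and Psmd8.

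Among regulators and assembly factors, 5 of 13 rose (17.1% of all genes tested) and 1 fell, a smaller share than over all genes (14.6%). Psmg1, a chaperone of alpha ring assembly, had 431 and 452 normalised reads in the PBS libraries, 581 and 574 after MCF10A EVs, and 597 and 518 after MDA-MB-231 EVs. Both vesicle groups lay above PBS and overlapped each other. Its rise of 0.39 (SE 0.075, limma adjusted p = 0.0010) was the largest of all members. Psmd5, a chaperone of base assembly, had 2165 and 2063 in the PBS libraries, 2507 and 2669 after MCF10A EVs, and 2304 and 2235 after MDA-MB-231 EVs, in separate ranges, and rose by 0.29 (limma adjusted p = 7.4e-05). Psme3, the nuclear activator PA28 gamma, rose by 0.29 (limma adjusted p = 2.2e-05), while the interferon-inducible activators Psme1 and Psme2 changed by -0.08 and -0.12 and were not called (limma adjusted p = 0.34 and 0.18). The 1 gene that fell was Psme2b, with 1594 and 1581 in the PBS libraries, 1494 and 1417 after MCF10A EVs, and 1530 and 1603 after MDA-MB-231 EVs (-0.13, limma adjusted p = 0.041). Its sequence is nearly that of Psme2, so reads of the 2 genes may have been split. Without single libraries it ran from -0.16 to -0.09, and it was called only without MCF10A EV replicate 1. Psmg2 (0.27) and Psmd9 (0.18) lost their calls without any library except PBS replicate 2 and MCF10A EV replicate 1 respectively, at 0.12 to 0.41 and 0.13 to 0.23. Over all 46 genes, 19 of the 28 calls held in every fit with 1 library left out, 13 held by limma without its trend and 15 with no filter on low values.

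With MDA-MB-231 EVs the median change was smaller, and 34 of 46 changes were above 0, against 40 with MCF10A EVs. Against PBS, 11 of 46 genes rose, a share not far above that of all genes tested (17.9%). Another 2 fell, a smaller share than over all genes (16.9%), and 33 were not called by limma. The median change was 0.06 against 0.01 over all genes. In either direction 13 were called, a share below that of all genes (34.8%). The libraries did not overlap for 25 genes that were higher (34.3% of all genes) and 6 that were lower (31.6%). By part, 3 of 15 genes rose in the core and none fell, 5 of 17 rose and 2 fell in the cap, and 3 of 13 regulators rose. The shares that rose in the core and among the regulators were near the 17.9% of all genes. The sum over the 46 genes was 117712 and 114624 normalised reads, 1.04-fold of PBS, and 1.09-fold as a share of recovered reads. Rises were 1.07-fold to 1.26-fold, led by Psmg1 (0.33, limma adjusted p = 0.0026) and Psmg4, another assembly chaperone (0.32, 0.032), and followed by Psma1 (0.16, 0.0030), Psmd12 (0.15, 0.0032), Psmb3 (0.15, 0.014) and, in the base, Psmc3 (0.11, 0.012). Psmg4 had 211 and 238 normalised reads in the PBS libraries, 249 and 276 after MCF10A EVs, and 296 and 263 after MDA-MB-231 EVs, with both vesicle groups above PBS and overlapping each other.

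The 2 genes that fell were in the lid. Psmd8, a lid subunit, had 3397 and 3470 normalised reads in the PBS libraries, 3215 and 3258 after MCF10A EVs, and 3119 and 3066 after MDA-MB-231 EVs. The 3 groups were in separate ranges, with PBS highest, opposite to Psmd6. It fell by 0.15 (SE 0.033, limma adjusted p = 0.0019), and changed by -0.09 with MCF10A EVs (limma adjusted p = 0.061). Psmd11, also of the lid, had 2683 and 2693 in the PBS libraries, 2733 and 2984 after MCF10A EVs, and 2486 and 2462 after MDA-MB-231 EVs, lowest in the last group. It fell by 0.12 (limma adjusted p = 0.034).

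The number of calls in the MDA-MB-231 EV comparison rested on single libraries. The rises numbered 1 without MDA-MB-231 EV replicate 1, 2 without PBS replicate 1, 6 without PBS replicate 2, 8 without MDA-MB-231 EV replicate 2 and 10 without either MCF10A EV library. Falls numbered 1 without either PBS library and without MDA-MB-231 EV replicate 2. Only Psma1 (0.13 to 0.18) and Psmd8 (-0.17 to -0.14) kept their call throughout these fits. The other changes named ran from 0.23 to 0.43 (Psmg1), 0.13 to 0.18 (Psmd12), 0.11 to 0.19 (Psmb3), 0.08 to 0.15 (Psmc3) and -0.13 to -0.11 (Psmd11), and Psmg4, at 0.23 to 0.40, lost its call without any 1 of the 6 libraries. Leaving out PBS replicate 1 or the first MDA-MB-231 EV library ended the calls of Psmg1, Psmd12, Psmb3, Psmc3 and Psmd11, as did PBS replicate 2 for Psmb3, Psmc3 and Psmd11 and the second MDA-MB-231 EV library for Psmd11. By limma without its trend none of the 13 calls held (0 higher, 0 lower), and with no filter on low values 3 did. With libraries scaled by their totals, 27 genes rose and 1 fell. Over all 15025 genes tested, 3979 then rose in place of 2688, and 1888 fell in place of 2543. Of all genes called 67.8% were higher in place of 51.4%. Of the 31 core and cap subunits, 25 were higher in MDA-MB-231 EV replicate 1 than in replicate 2.

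**Figure D3:**
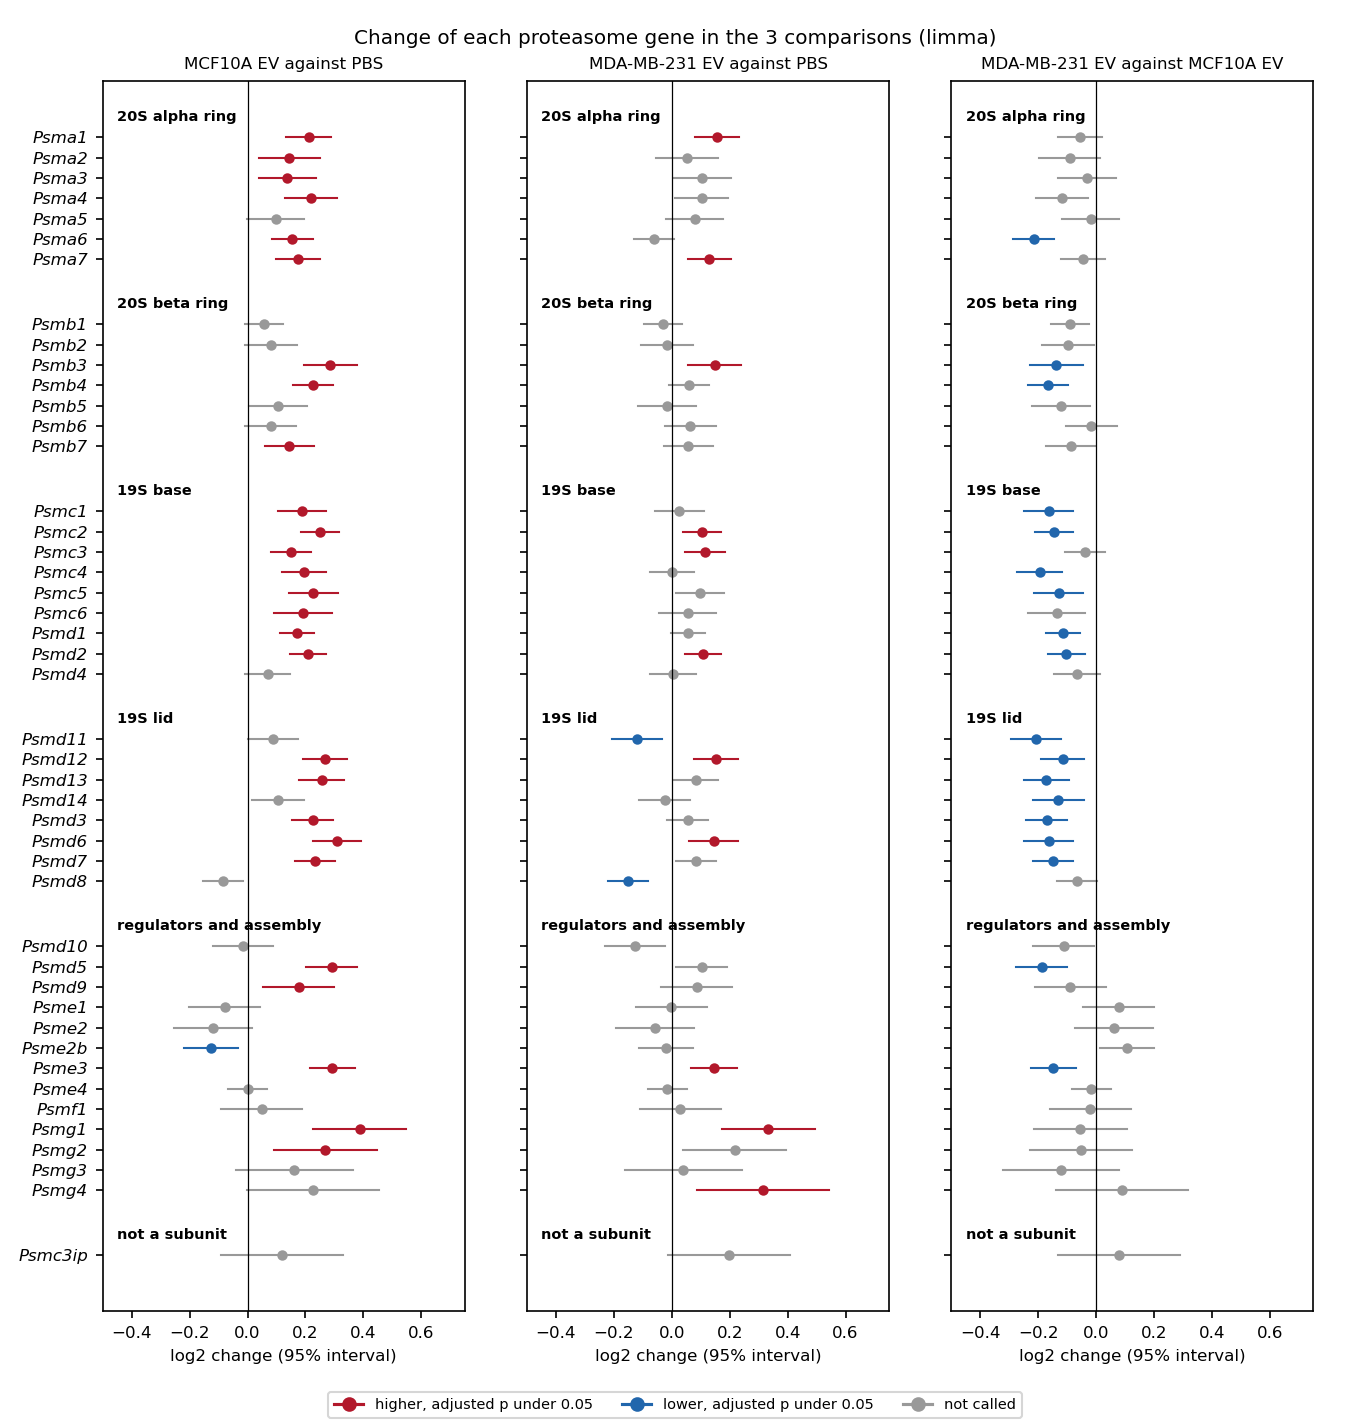
Log2 change of each gene (Psmb11 left out) with its 95% interval from limma in the 3 comparisons, coloured by call. Rises fill the core and cap rows of the first panel, are fewer in the second, and the third holds falls only, mostly in the 19S rows.

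The vesicle groups were then compared directly, which is the test of whether the 2 treatments differed. With MDA-MB-231 EVs, 18 of 46 genes were lower than with MCF10A EVs (10.1% of all genes tested) and 0 were higher (6.84%) by limma. At an unadjusted p under 0.05 the counts were 25 lower and 1 higher, a threshold at which the share over all genes was not counted. By edgeR with TMM 19 were lower and 0 higher, where 1636 of 12352 genes tested were lower and 1351 higher. By DESeq2 13 were lower and 0 higher, where 937 of 12179 were lower and 577 higher. By limma without its trend 0 of the 18 calls held, and with no filter on low values 3 did. Libraries of the 2 groups did not overlap for 30 genes that were lower (28.9% of all genes) and 3 that were higher (27.2%). In either direction limma called 16.9% of all genes. The median difference was -0.10, against -0.00063 over all genes. The 18 were 3 of 15 core genes (Psma6, Psmb3 and Psmb4), 13 of 17 cap genes and 2 of 13 regulators (Psmd5 and Psme3). Each of these counts stands beside 10.1% lower over all genes tested. Of the 18, 16 had risen with MCF10A EVs against PBS. The differences were 1.07-fold to 1.16-fold.

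Psma6, an alpha ring subunit, had 3105 and 3105 normalised reads in the PBS libraries, 3502 and 3410 after MCF10A EVs, and 2960 and 2990 after MDA-MB-231 EVs. The order of its groups put MDA-MB-231 EVs lowest, and the difference between vesicle groups was -0.22 (SE 0.033, limma adjusted p = 0.00031), the largest of the members. It was the only one of the 18 called without any 1 library (-0.24 to -0.20). In the base the largest was the ATPase gene Psmc4, with 3275 and 3165 in the PBS libraries, 3699 and 3673 after MCF10A EVs, and 3310 and 3132 after MDA-MB-231 EVs, where PBS and MDA-MB-231 EVs overlapped (-0.20, limma adjusted p = 0.0015, lost without MDA-MB-231 EV replicate 2, -0.23 to -0.16). Psmd11 in the lid differed by -0.21 (limma adjusted p = 0.0025), Psmb4 by -0.17 (0.0023) and Psmd5 by -0.19 (0.0053). Their calls were lost without MDA-MB-231 EV replicate 2 and, in turn, without MCF10A EV replicate 2 and MDA-MB-231 EV replicate 1 for Psmd11 and Psmd5 (-0.27 to -0.14 and -0.23 to -0.14) and without MCF10A EV replicate 1 for Psmb4 (-0.19 to -0.14).

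The count of 18 fell to 1 without MDA-MB-231 EV replicate 2, 7 without MCF10A EV replicate 1, 8 without MCF10A EV replicate 2, also 8 without MDA-MB-231 EV replicate 1, and 12 without either PBS library. With libraries scaled by their totals 11 were lower and 1 higher. Over all 15025 genes tested, 1106 were then lower in place of 1514, and 1784 higher in place of 1027. Of all genes called 61.7% were higher in place of 40.4%. With quantile scaling 13 were lower, as were 1209 of all 15025 genes tested, and 50.7% of all genes called were higher.

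Among the 31 core and cap subunits without Psmb11, group means were highest with MCF10A EVs for 30 and ran in the order PBS, MDA-MB-231 EVs, MCF10A EVs for 24. The 2 comparisons with PBS share its libraries, so their changes are given side by side only. Median log2 values relative to the PBS mean were 0.18 and 0.17 in the MCF10A EV libraries and 0.10 and 0.05 in the MDA-MB-231 EV libraries.

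**Figure D4:**
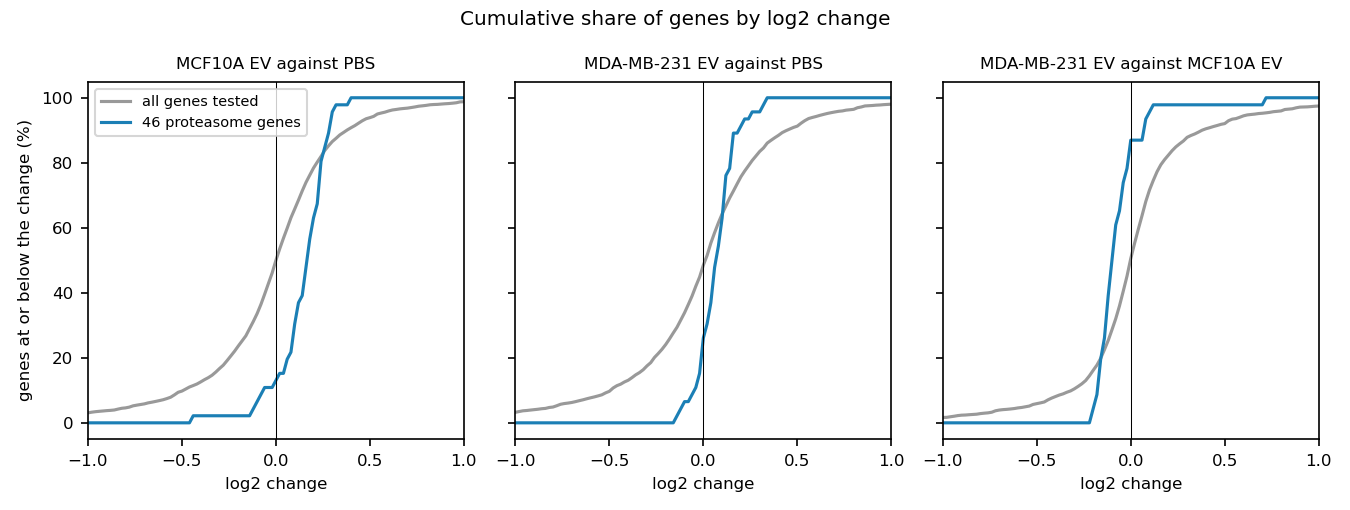
Cumulative share of genes (vertical, %) at or below each log2 change (horizontal) for the 46 proteasome genes and all 15025 genes tested. The curve of the proteasome genes is steeper and lies to the right of that of all genes around its middle with MCF10A EVs, with a median of 0.17, and to the left in the comparison between vesicle groups, with a median of -0.10.

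Genes around the proteasome did not move as one. Of 35 listed, 34 were matched (Paaf1 was not). With MCF10A EVs 13 rose and 8 fell by limma, where 17.1% and 14.6% of all genes tested did. With MDA-MB-231 EVs 6 rose, a share near that of all genes (17.9%), and 13 fell (16.9% of all genes). Between vesicle groups 14 were lower (10.1% of all genes) and 0 higher (6.84%). Of 10 assembly factors and cofactors, 7 rose with MCF10A EVs (17.1% of all genes) and 1 fell (14.6%), and 3 rose (17.9%) and 3 fell (16.9%) with MDA-MB-231 EVs. Those that rose with MCF10A EVs included Usp14, a deubiquitinase bound to the cap (0.28, limma adjusted p = 3.9e-05), and Pomp, the beta ring assembly factor (0.17, 0.0014). Usp14 also rose with MDA-MB-231 EVs (0.19, limma adjusted p = 0.00081). Adrm1, a ubiquitin receptor of the cap, had 1924 and 1897 normalised reads in the PBS libraries, 2096 and 2154 after MCF10A EVs, and 1756 and 1784 after MDA-MB-231 EVs, a difference between vesicle groups of -0.26 (limma adjusted p = 0.00018).

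Of 7 genes for transcription factors and their processing, 3 fell with MCF10A EVs (14.6% of all genes) and 5 with MDA-MB-231 EVs (16.9%), and the others were not called by limma. Nfe2l1 had 9629 and 9500 normalised reads in the PBS libraries, 8719 and 8540 after MCF10A EVs, and 7107 and 7117 after MDA-MB-231 EVs. The 3 groups were in separate ranges with PBS highest, and it fell by 0.15 with MCF10A EVs (limma adjusted p = 0.00071) and by 0.43 with MDA-MB-231 EVs (limma adjusted p = 1.5e-08), calls that held without any 1 library. Nfe2l2 (NRF2) fell by 0.29 with MDA-MB-231 EVs, and its partners Mafg and Maff by 0.42 and 0.43 (limma adjusted p = 7.3e-06, 3.9e-06 and 1.2e-06). Ddi2 and Ngly1, which process NRF1 protein, changed by 0.07 and 0.09 and were not called (limma adjusted p = 0.24 and 0.29). RNA levels do not give the activity of these proteins.

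Of 4 genes for ubiquitin and its activation, 2 fell in each vesicle group (14.6% of all genes with MCF10A EVs and 16.9% with MDA-MB-231 EVs). One rose in each group (17.1% and 17.9%): Uba1, the ubiquitin-activating enzyme, by 0.08 and 0.09 (limma adjusted p = 0.043 and 0.037). The first held only in the fits that left out an MDA-MB-231 EV library (0.06 to 0.10 over all 6 fits with 1 library left out), and the second was kept only without MDA-MB-231 EV replicate 2 (0.05 to 0.12). Ubb, a polyubiquitin gene, fell by 0.15 and by 0.35 (limma adjusted p = 0.0011 and 1.9e-07), the former lost without PBS replicate 1 (-0.17 to -0.13). Zfand2a, an arsenite-inducible proteasome-binding protein, had 1839 and 1914 in the PBS libraries, 2124 and 1998 after MCF10A EVs, and 1532 and 1509 after MDA-MB-231 EVs, a difference between vesicle groups of -0.44 (limma adjusted p = 4.4e-06). The immunoproteasome subunits were low: Psmb8 had 41.3 to 78.5 normalised reads per library, Psmb9 6.69 to 36.6 and Psmb10 177 to 267. Psmb10 was called higher with MDA-MB-231 EVs against PBS (0.39, limma adjusted p = 0.017). Psmb9, with 6 to 36 recovered reads per library, was called lower with MCF10A EVs (-1.24, limma adjusted p = 0.040). With single libraries left out these changes ran from 0.25 to 0.52 and from -2.0 to -0.49, and neither call held in every such fit. Both calls were lost by limma without its trend and with no filter on low values. That of Psmb10 was also lost by DESeq2. The call of Psmb9 was also lost with quantile scaling and in a fit of only the groups compared. No other change of these genes was called.

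**Figure D5:**
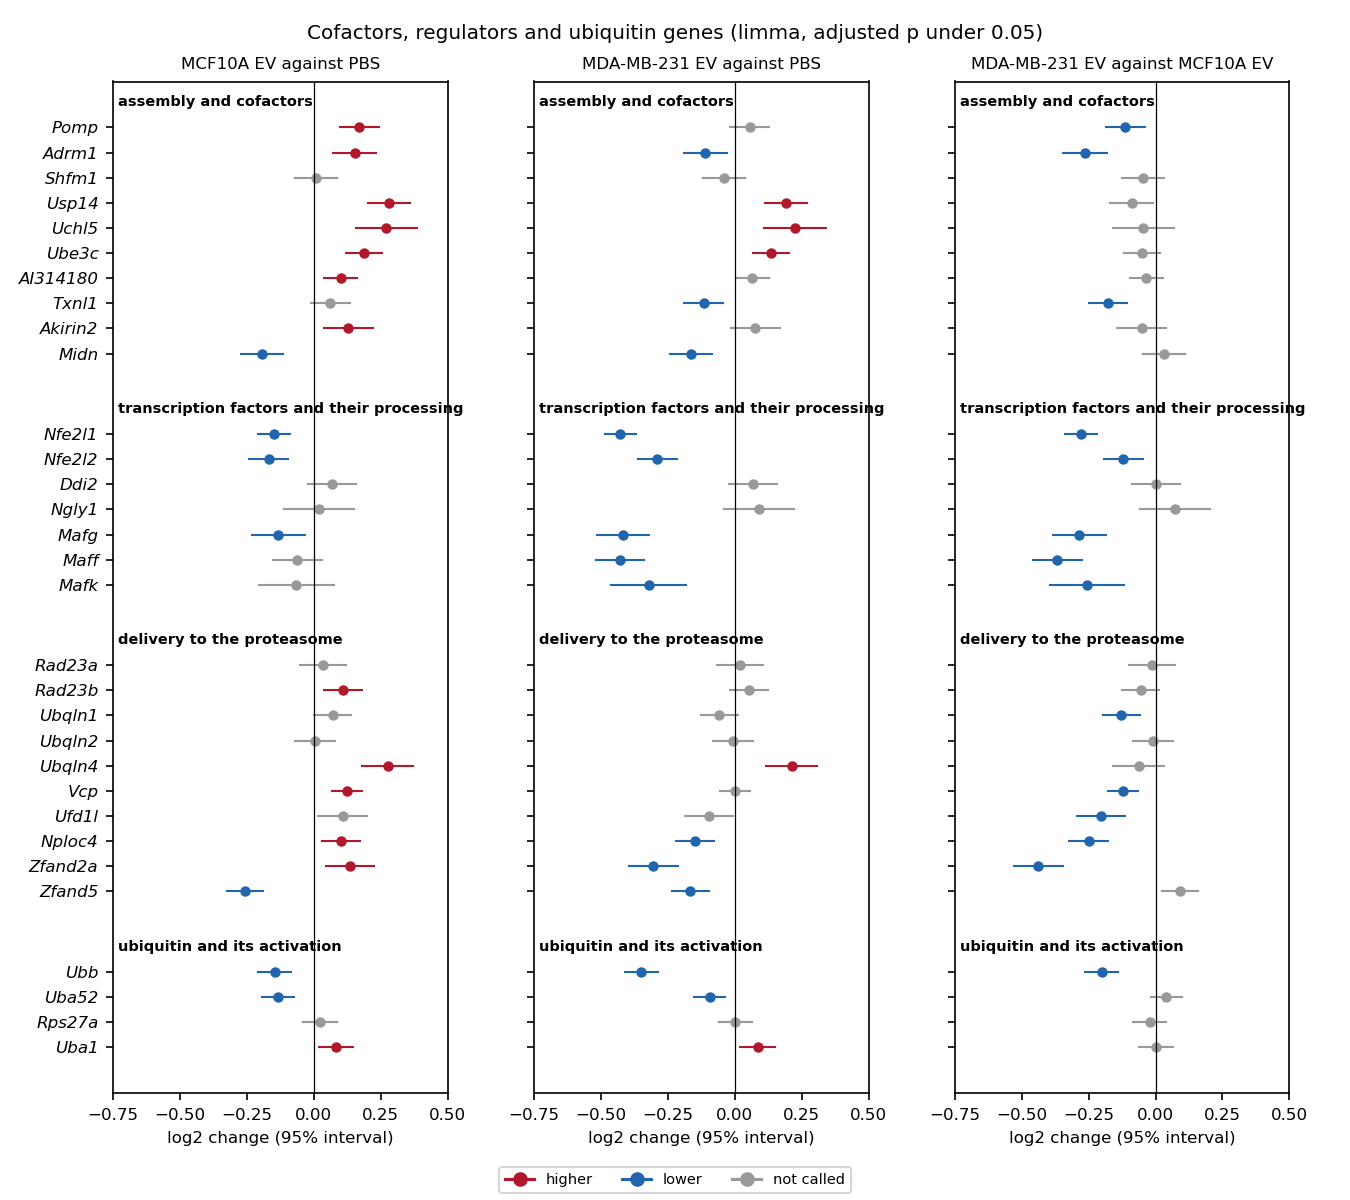
Log2 change with its 95% interval (limma) of the listed cofactors, transcription factors, delivery factors and ubiquitin genes in the 3 comparisons, coloured by call; the immunoproteasome is left out. Nfe2l1 and Nfe2l2 lie left of 0 in all 3 panels, and Usp14 right of 0 in the first and second.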

How the data were processed

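RNA-seq was run on 6 libraries of NIH3T3 cells, 2 per group, with groups taken from the sample titles. The deposited file holds a signal made by the authors for 20475 genes and 6 libraries. Its values behave as edgeR's quantile-adjusted pseudo-counts, an adjustment that uses the group labels. The submitters' processing notes name TopHat2, edgeR and hg19, a human build, although the table names mouse genes. The sources used here do not give versions, the counter, its strand setting or the mouse build, so genes of the table are located by chromosome only. Whole reads were recovered by inverting edgeR's adjustment: 122850 of 122850 values came out whole within a relative 1e-06 (100%), and a simulated table was returned in full. Totals were 22451173 to 29315530 reads, and 3 reads correspond to 0.102 to 0.134 CPM; these cover counting error only.

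limma 3.58.1 (R 4.3.3, eBayes with trend) was run on log2(value + 1) for 15025 genes with at least 1 in at least 2 libraries, all 6 libraries in 1 fit (3 residual and 11.51 prior degrees of freedom). Fold changes are on that scale. P-values are two-sided and Benjamini-Hochberg adjusted over all genes, called under 0.05. The tests were checked on simulated data. Alternatives used edgeR 4.0.16 and DESeq2 1.42.0 on the recovered reads, other scalings, filters and pseudocounts, and each library left out. Transcript lengths came from GENCODE vM21 and promoters from RefSeq.

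The members and lists were chosen with earlier results of these data known. Genes given by library were Psmb5, Psmb6 and Psmb7, the largest called change of each class and comparison, called genes against their class's direction, and the 2 highest and 2 lowest per kb. Adrm1, Nfe2l1 and Zfand2a were named after their values were seen, as were the other genes of the wider list. The 2 libraries of each group differed by more than sampling noise (chi-square per degree of freedom 1.654 to 2.293), so no library appeared to have been deposited more than once. Whether that spread is technical is not known. One gene of the wider list is not reported here and is left out of its counts.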

Additional observations from a re-analysis of the deposited data

Results flagged for a closer look

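For 3 genes, every MCF10A EV library lay above both PBS libraries and every MDA-MB-231 EV library below both, and the vesicle groups differed by limma. They were picked for this pattern, and its share over all genes was not counted. Against PBS, Psma6 was called only with MCF10A EVs (with MDA-MB-231 EVs -0.06, limma adjusted p = 0.17). Psmd11 was called only with MDA-MB-231 EVs (with MCF10A EVs 0.09, limma adjusted p = 0.12). Psmd14 was called with neither (0.11 and -0.02, limma adjusted p = 0.068 and 0.69). The difference between vesicle groups on the log2 scale was -0.22 for Psma6 (limma adjusted p = 0.00031), -0.21 for Psmd11 (0.0025) and -0.13 for Psmd14 (0.043). For Psmd14 the lower of the PBS libraries, 1829 normalised reads, was just above the higher of the MDA-MB-231 EV libraries, 1823, and its call was lost when any library but MCF10A EV replicate 2 was left out (-0.18 to -0.08). The call of Psmd11 was lost without MCF10A EV replicate 2 or either MDA-MB-231 EV library (-0.27 to -0.14), and that of Psma6 was kept throughout (-0.24 to -0.20).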

How the results depend on the processing

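With 2 libraries per group, changes near 1.1-fold sit close to the test's limit. Beside 27 higher and 1 lower with MCF10A EVs, 11 and 2 with MDA-MB-231 EVs and 0 and 18 between vesicle groups, in that order, limma gave 13 and 0, 0 and 0, 0 and 0 without its trend, and 15 and 0, 3 and 1, 0 and 3 with no filter. Over all 15025 genes tested, 2571, 2688 and 1027 were higher as reported and 1228, 1634 and 124 without the trend. Lower were 2193, 2543 and 1514 as reported and 1003, 1712 and 254 without the trend. With no filter, 1363, 1600 and 229 of 20475 genes were higher and 1070, 1686 and 482 lower. Scaling by library totals gave 31 and 0, 27 and 1, 1 and 11. Over all genes it gave 2979, 3979 and 1784 higher and 1888, 1888 and 1106 lower. Quantile scaling gave 2 lower with MCF10A EVs and 17 higher with MDA-MB-231 EVs. Over all genes those counts were 2170 and 2764. DESeq2 gave 23 and 0, 5 and 1, 0 and 13. Of the 10940, 12179 and 12179 genes it tested, 1665, 1754 and 577 were higher and 1617, 1967 and 937 lower. A filter of 5 CPM gave 28 and 2, 16 and 3, 0 and 21. Of the 10214 genes it left, 2728, 2807 and 1176 were higher and 2172, 2515 and 1663 lower. A fit of only the groups compared gave 24 and 0, 10 and 2, 0 and 12. Its counts over all genes were 2168, 2443 and 628 higher and 1795, 2373 and 1076 lower. Both edgeR fits gave 2 lower with MCF10A EVs, where 2516 (TMM) and 2596 (DESeq2 size factors) of 12352 genes tested were lower. In the other comparisons edgeR with TMM gave 14 and 3 and then 0 and 19. With DESeq2 size factors it gave 12 and 3 and then 0 and 20. Over all 12352 genes, TMM gave 2836 and 2718 and then 1351 and 1636. DESeq2 size factors gave 2717 and 2782 and then 1320 and 1637. With 1 library left out, counts ran from 20 to 24 higher and 0 to 1 lower, 1 to 10 higher and 1 to 2 lower, and 1 to 12 lower. The sums relative to PBS were 1.138 and 1.087 as shares of recovered reads. Among the catalytic subunits, signs turned for Psmb5 with MDA-MB-231 EVs against PBS (0.049 with library totals, -0.072 to 0.039 with 1 library left out), for Psmb7 there (-0.0013 to 0.12 with 1 library left out), and for Psmb6 between vesicle groups (0.028 with library totals, 0.0056 with quantile scaling, -0.068 to 0.036 with 1 library left out), none of them called. The cause of these changes was not tested. Same-numbered libraries did not deviate together (correlations -0.0108, 0.0178 and 0.0272 over 10104 genes), so the number was not used as a pairing. Whether they shared a culture or a preparation is not known. With the replicate number as a block the counts were 27 and 1, 12 and 3, and 0 and 18. Over all genes 2562, 2662 and 1039 were then higher and 2184, 2525 and 1521 lower. Pseudocounts of 0.5 and 5 changed none of the reported counts of proteasome genes.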
